A study of Mus musculus with 4 samples.

Results

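Molecular chaperones and their partners were followed through 52 genes. They were taken by name from the HSP90, HSP70 and HSP110 families, the cytosolic and mitochondrial chaperonins, prefoldin, the J-domain proteins, the small heat shock protein Hspb1, the BAG and HSP90 co-chaperones and the heat shock factors. All 52 symbols were found among the 50600 genes counted. The samples are primary T cells of the mouse strain C57BL/6NJ in 4 biological replicates of a single group, with no second condition. Headers of the count tables name them as Th0 cells, activated for 16 h. Th0 cells are CD4 T cells activated without cytokines that steer them to a helper subset. Each library was a total RNA-seq library by its label, although its library protocol is titled for polyA+ RNA. The labels carry 1 shared donor identifier, record no age or sex, and do not say whether the replicates came from separate animals, so a p-value measures only the spread between these samples.

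Chaperones bind proteins that are unfolded or partly folded and help them reach or keep their native shape, most of them through cycles of ATP binding and hydrolysis. Each compartment has its own set: the cytosol holds HSP90, HSP70, prefoldin and the ring-shaped chaperonin TRiC, while the endoplasmic reticulum (ER) and the mitochondrial matrix have their own HSP90 and HSP70 members. Some members are made constitutively. Others are induced by heat shock factors when proteins unfold in the cytosol, or by the unfolded protein response when they unfold in the ER. T cells grow and begin to divide after activation, which raises the load of newly made protein.

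Both kinds of induction act through short elements in the promoter, and matches to their letters were counted in each class of member. RefSeq gave a window around the transcription start (GRCm38.p6, the mm10 assembly; 250 bases before it to 50 after) for 43 of the 52 genes. Hsp90aa1, Hsp90ab1, Hspa8, Hspa9, Hspa13, Cct4, Dnajc2, Pfdn1 and Hsf1 had no window and were not searched. Both strands were searched for the ER stress response element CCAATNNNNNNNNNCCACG and for the heat shock element as 2 units, GAANNTTC, or 3 units, GAANNTTCNNGAA, so that each match of 3 units also contains a match of 2. GAANNTTC reads the same on both strands, and 2 units in the other order, TTCNNGAA, were not searched. The upstream 250 bases of 4 members with matches are shown, 5′ to 3′ on the gene's strand, with the matched letters in capitals. They are Hspa5 (chr2:34771840-34772089, plus strand), Hsp90b1 (chr10:86705445-86705694, minus strand), Hspa1a (chr17:34972157-34972406, minus strand) and Hspe1 (chr1:55087898-55088147, plus strand).
Hspa5: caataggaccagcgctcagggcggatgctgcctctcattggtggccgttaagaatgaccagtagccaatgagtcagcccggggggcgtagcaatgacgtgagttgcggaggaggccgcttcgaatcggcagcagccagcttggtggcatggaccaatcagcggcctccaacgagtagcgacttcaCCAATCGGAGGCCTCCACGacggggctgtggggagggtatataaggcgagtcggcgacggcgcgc
Hsp90b1: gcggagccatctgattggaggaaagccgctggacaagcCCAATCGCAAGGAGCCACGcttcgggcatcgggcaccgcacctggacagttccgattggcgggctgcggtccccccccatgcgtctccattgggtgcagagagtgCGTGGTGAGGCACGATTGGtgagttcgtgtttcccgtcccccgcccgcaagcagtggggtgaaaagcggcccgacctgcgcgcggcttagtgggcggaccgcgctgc
Hspa1a: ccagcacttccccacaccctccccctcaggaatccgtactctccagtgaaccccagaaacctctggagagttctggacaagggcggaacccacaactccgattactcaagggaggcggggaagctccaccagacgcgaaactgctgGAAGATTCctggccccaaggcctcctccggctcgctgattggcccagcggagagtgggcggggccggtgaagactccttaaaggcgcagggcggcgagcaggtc
Hspe1: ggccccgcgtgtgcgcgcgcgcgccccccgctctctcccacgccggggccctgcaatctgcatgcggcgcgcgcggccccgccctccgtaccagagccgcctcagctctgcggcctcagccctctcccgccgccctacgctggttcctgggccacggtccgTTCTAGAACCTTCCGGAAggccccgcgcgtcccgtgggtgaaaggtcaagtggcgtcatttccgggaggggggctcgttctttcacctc
The ER element stands 65 bases before the start of Hspa5, and Hsp90b1 has a match on each strand, 212 and 107 bases before its start. In Hspe1 the capitals are a pair of overlapping matches of 3 units, 89 and 84 bases before the start.

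The ER stress response element was found in 3 of the 5 ER-stress-inducible members with a window, Hspa5, Hsp90b1 and Dnajc3, and in none of the members of other classes. It occurs in 0.137% of the 27025 genes with a RefSeq window, and in 0.119% of all 32851 windows. The heat shock element of 2 units was found in 11 of the 43 members (25.6%), against 9.04% of all genes and 7.86% of all windows. Of 7 heat-inducible members with a window it was found in 5, which are Hspa1a, Hspa1b, Hsph1, Hspb1 and Bag3. Of 17 constitutive members with a window, which leave out Hsp90ab1 and Hspa8, it was found in 1, Cct2. Of 10 members left unclassified it was found in 5, which are Hspd1, Hspe1, Dnaja1, Dnajb6 and Fkbp4, and it was found in none of the 5 ER-stress-inducible and 4 testis-known members. Matches of 3 units, present in 0.662% of all genes and 0.603% of all windows, were found in 4 members (9.30%), Hsph1, Hspd1, Hspe1 and Dnajb6. The windows of Hspa1a and Hspa1b have the same letter at 296 of 300 places, with the element 104 bases before each start. Hspd1 and Hspe1 are transcribed away from each other, from starts 216 bases apart, so that their windows share 285 bases and the same element. A second Hspd1 start lies 95 bases from that of Hspe1, and its window held no match. Counts of 2 units refer to the order GAANNTTC alone, so a member without a match may still hold the order TTCNNGAA. A match describes letters in a window and not a bound site.

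Read pairs counted to genes numbered 46192242 to 63313389 per library, and 3 read pairs then amount to 0.0474 to 0.0650 CPM (counts scaled to the library total). Levels are given as TPM (read pairs per base of transcript, scaled to the same sum in every library), computed from the read pairs of each gene over its deposited exonic length, with the mean ± SD over n = 4 libraries. All 8 T cell markers were at 1 TPM or more in every library, Cd4 among them at 749 ± 30.2 TPM. Of the CD8 markers Cd8b1 averaged 57.5 TPM while Cd8a averaged 0.776 TPM. None of the 5 B cell, 6 myeloid, 3 natural killer, 3 erythroid and 3 stromal or epithelial markers was at 1 TPM or more in every library. Their summed levels were 2.45 to 9.36 TPM for B cells, 0.122 to 0.330 TPM for myeloid cells, 0.447 to 1.42 TPM for natural killer cells, 0 to 0.101 TPM for erythroid cells and 0.994 to 1.66 TPM for stromal or epithelial cells. S100a8, S100a9, Hba-a1, Hbb-bs and Krt8 had 0 read pairs in all 4 libraries. The libraries fall into pairs by Xist, which had 141 and 116 TPM in replicates 1 and 2, against 0.269 and 0.303 TPM in replicates 3 and 4. Ddx3y, a Y-linked gene, had 0.0597 and 0.104 TPM in replicates 1 and 2 and 39.7 and 42.8 TPM in replicates 3 and 4. By these genes replicates 1 and 2 differ from replicates 3 and 4 as female cells do from male cells, although the labels share 1 donor identifier.

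Chaperone genes were widely and highly expressed. Of the 52 members 47 (90.4%) reached 1 TPM in every library, against 9840 of 21751 nuclear protein-coding genes (45.2%). Their median level was 216 TPM, against 32.7 TPM for the nuclear protein-coding genes that reached 1 TPM in every library. There were 8 members at 1000 TPM or more on average, 26 between 100 and 1000 TPM, 10 between 10 and 100 TPM, 3 between 1 and 10 TPM and 5 under 1 TPM. The 52 genes together held 3.21 ± 0.0606% of all read pairs, and their summed level was 32334, 31659, 32345 and 32052 TPM in replicates 1 to 4. Hsp90ab1 alone was 30.1 ± 0.965% of that sum, and the 5 most abundant members, Hsp90ab1, Hspa8, Hspd1, Cct2 and Cct5, made up 53.4 ± 0.428%. In these bulk libraries more cells with a transcript and more of it per cell cannot be told apart.

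**Figure D1:**
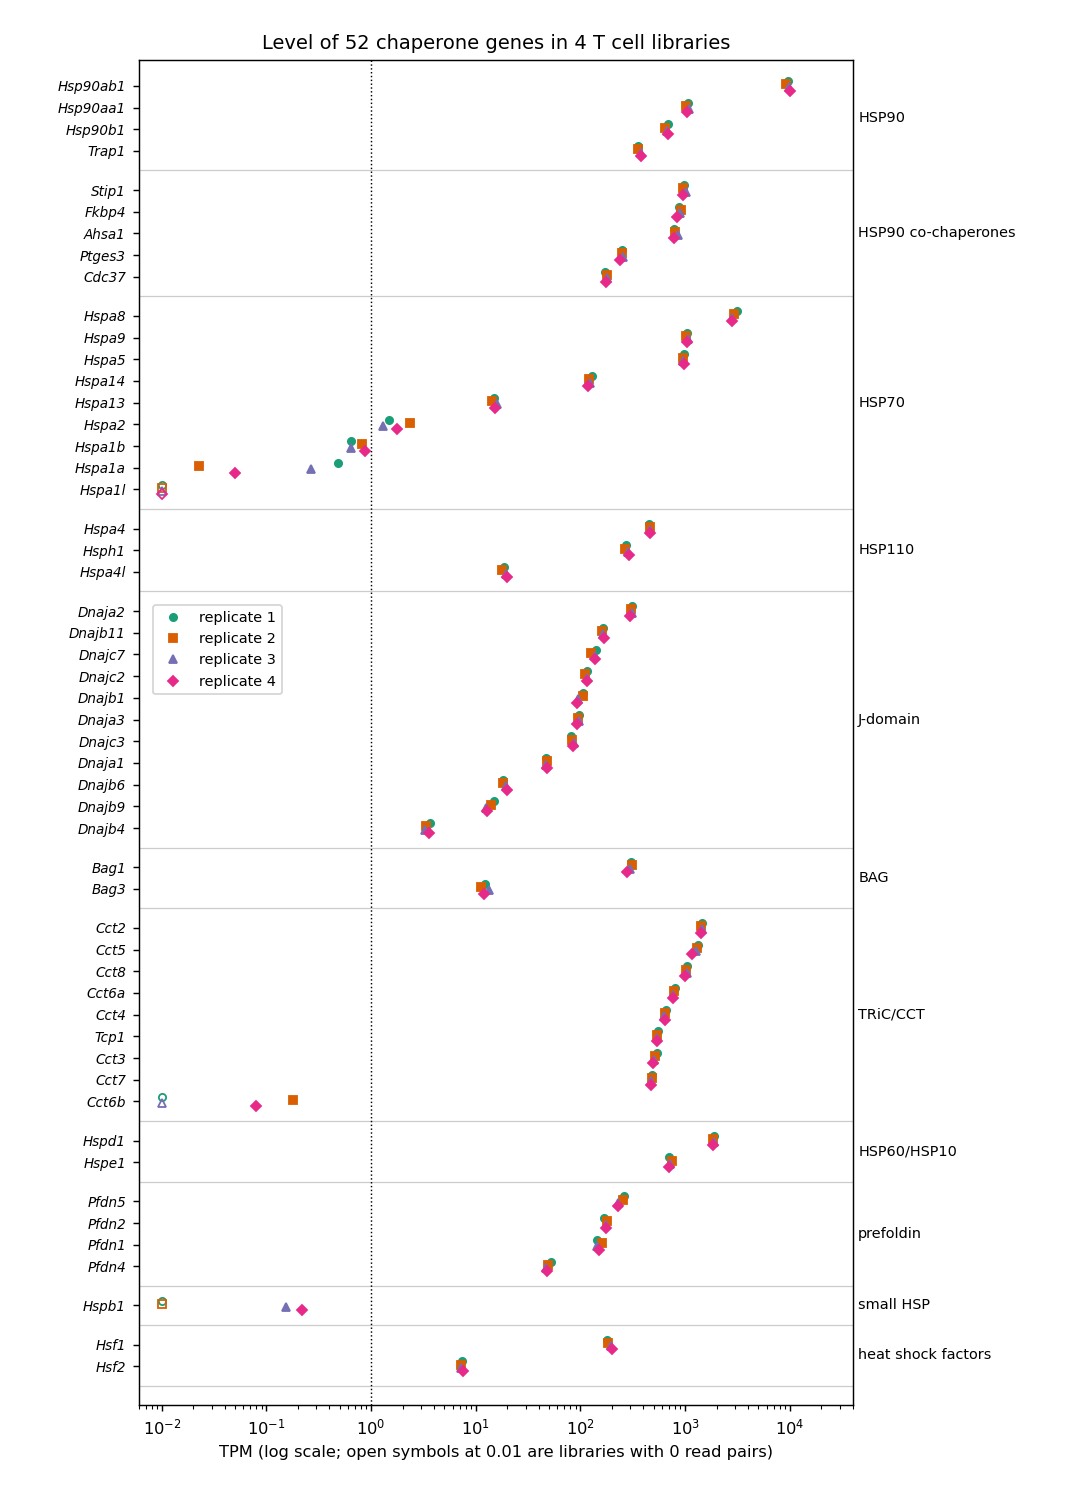
TPM of each of the 52 chaperone genes on a log scale, grouped by family, with 1 symbol for each library; open symbols at 0.01 stand for 0 read pairs and the dotted line marks 1 TPM. The members span from 0 read pairs for Hspa1l to about 10042 TPM for Hsp90ab1, and the 4 libraries lie close together except for Hspa1a, Hspa2, Hspb1 and Cct6b at the low end.

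HSP90 proteins hold client proteins such as kinases and steroid receptors near their active form. The cytosolic constitutive gene Hsp90ab1 (chr17:45567775-45573271, minus strand) had 9515, 9246, 9796 and 10042 TPM in replicates 1 to 4. Only 2 nuclear protein-coding genes had a higher mean. Its heat-inducible cytosolic partner Hsp90aa1 (chr12:110690605-110702728, minus strand) had 1066, 1027, 1086 and 1035 TPM. The ER member Hsp90b1, which folds secreted and membrane proteins such as integrins and Toll-like receptors, had 684, 646, 672 and 689 TPM. Trap1, the mitochondrial member, had 358, 358, 381 and 377 TPM. The order of the 4 genes was the same in every library and no 2 of them overlapped.

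The 5 co-chaperones of HSP90 fell into a higher and a lower group. Stip1, also called HOP, passes clients from HSP70 to HSP90 and had 971, 953, 1018 and 963 TPM. Fkbp4, an immunophilin of steroid receptor complexes, had 874, 908, 893 and 835 TPM. Ahsa1 speeds up the ATPase of HSP90 and had 789, 807, 850.1 and 786 TPM. By deposited length those 3 genes lay above Hsp90b1 in every library, while by principal transcript length (the length of 1 representative transcript of the gene, taken from GENCODE M21) Ahsa1 lay below it in every library, at 534 TPM on average against 649 TPM. The remaining pair lay below Trap1 by both lengths. Ptges3, or p23, which stabilises the closed form of HSP90, averaged 247 ± 7.60 TPM. Cdc37, which brings kinases to HSP90, averaged 176 ± 3.97 TPM. The ranges of Fkbp4 and Ahsa1 overlapped, with Fkbp4 the higher in all 4 libraries.

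HSP70 proteins bind short hydrophobic stretches of their clients. Among the 9 members of the family the constitutive cytosolic Hspa8 (chr9:40800984-40810087, plus strand) led with 3121, 2921, 2830.44 and 2775 TPM. Hspa9, the matrix HSP70 that pulls precursors into mitochondria, had 1047, 1025, 1060.03 and 1031 TPM. Hspa5, or BiP, the ER HSP70 that also holds the stress sensors of the ER inactive, had 972, 958, 946 and 975 TPM. Hspa9 lay above Hspa5 in every library. Hspa14, which works at the ribosome together with the J-domain protein Dnajc2, averaged 122 ± 4.48 TPM, and Dnajc2 averaged 114 ± 2.23 TPM, both by deposited length. Hspa13, an ER-associated HSP70, averaged 15.1 ± 0.614 TPM.

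The classical heat-inducible HSP70 genes were close to silent. Hspa1a (chr17:34969190-34972156, minus strand) had 23, 1, 15 and 2 read pairs in replicates 1 to 4, which is 0.481, 0.0228, 0.268 and 0.0502 TPM. Hspa1b (chr17:34956436-34959238, minus strand) had 29, 34, 34 and 33 read pairs, which is 0.642, 0.820, 0.643 and 0.877 TPM. Replicates 1 and 3 were the higher for Hspa1a, and replicates 2 and 4 for Hspa1b in TPM. Their neighbour Hspa1l, known from testis, had 0 read pairs in all 4 libraries, where 3 read pairs would be 0.0644 to 0.0904 TPM. Hspa2, another testis HSP70, had 1.48, 2.35, 1.30 and 1.77 TPM.

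Near-identical copies limit how well some of these genes can be counted. Hspa1a and Hspa1b share much of their sequence: 60.4% of the stretches of 50 bases in the principal transcript of Hspa1a and 62.3% of those of Hspa1b occur in transcripts of genes elsewhere in the GENCODE M21 annotation, nearly all in the other of the pair. The share was 74.8% for Hspa8, most of it with the copy Gm15459, 60.4% for Hspb1, 58.5% for Hsp90aa1, 44.8% for Hspd1, 41.9% for Dnajb6 and 36.1% for Hspe1. Levels of these members are uncertain, since the counting command had no option for read pairs that fit more than 1 place. Gm15459 itself had 977 to 1213 read pairs per library, and Gm12346, the best match of Hsp90aa1, had 184 to 278. These counts do not show how many read pairs of Hspa8 and Hsp90aa1 were left out. A share of 10% or more was found for 14 of the 52 members, and 27 members shared no such stretch.

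HSP110 proteins are relatives of HSP70 that exchange its nucleotide and help it dissolve aggregates. Hsph1, the heat-inducible member, had 270.1, 268, 282 and 291 TPM. Hspa4, its constitutive partner, had 449, 458, 460.3 and 459 TPM, above Hsph1 in every library. By principal transcript length the 2 genes were close, and Hsph1 was above Hspa4 in replicate 4, at 377 TPM against 372 TPM. Hspa4l, known from testis, averaged 18.9 ± 0.749 TPM.

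J-domain proteins bring clients to HSP70 and start its ATPase, and all 11 of them were at 1 TPM or more in every library. The cytosolic Dnaja2 led the family at 313, 301, 313 and 300.0 TPM. Dnaja1, its close relative, had 46.7, 47.7, 47.1 and 47.9 TPM. Heat-inducible Dnajb1, the J-domain partner of HSP70 in disaggregation, had 105, 106, 93.8 and 93.4 TPM. Replicates 1 and 2 lay above replicates 3 and 4 for Dnajb1 without overlap. Heat-inducible Dnajb4 was the least abundant of the family, at 3.47 ± 0.157 TPM. Dnajc7, which has binding sites for both HSP70 and HSP90, averaged 135 ± 6.55 TPM. Dnaja3, the mitochondrial partner of Hspa9, averaged 95.2 ± 2.14 TPM, and Dnajb6, which keeps polyglutamine proteins from aggregating, averaged 18.9 ± 0.692 TPM.

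In the ER the J-domain partners of Hspa5 differed widely. Dnajb11, which binds unfolded secretory proteins, had 163, 159.6, 165 and 167 TPM. Dnajc3, which is also known as an inhibitor of the eIF2alpha kinases, had 81.7, 82.3, 87.6 and 85.6 TPM. Dnajb9, a partner of Hspa5 in degradation and in holding Ern1 inactive, had 14.9, 14.0, 12.5 and 12.7 TPM. The ranges of these 3 genes did not overlap.

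BAG proteins release nucleotide from HSP70. Bag1, which links HSP70 to the proteasome, had 301, 312, 294 and 280.3 TPM. Heat-inducible Bag3, which links it to autophagy, had 12.2, 11.3, 13.3 and 12.1 TPM.

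TRiC is a double ring of 8 different subunits that folds actin and tubulin among other clients, each ring holding 1 copy of each subunit. All 8 were abundant. By deposited exonic length the highest, Cct2, had 1449, 1429, 1453 and 1408 TPM, and the lowest, Cct7, had 481, 484, 476 and 469.7 TPM. Between them the means were 1264 ± 66.8 TPM for Cct5, 1023 ± 20.2 TPM for Cct8, 779.6 ± 13.6 TPM for Cct6a, 640.4 ± 10.4 TPM for Cct4, 544 ± 5.89 TPM for Tcp1 and 513 ± 18.5 TPM for Cct3. That spread depended on the length used. The ratio of the highest to the lowest subunit averaged 3.00 with the deposited length, which joins the exons of all annotated transcripts, and 1.78 with the length of the GENCODE M21 principal transcript, and the coefficient of variation across the 8 subunits was 43.8% and 23.7%. Read pairs themselves, not divided by any length, differed 1.34-fold to 1.41-fold between the highest and lowest subunit. The order changed as well: by principal transcript the means were 1296 TPM for Cct5, 1266 TPM for Cct2, 1118 TPM for Cct3, 897 TPM for Cct7, 892 TPM for Cct8, 778 TPM for Cct6a, 756 TPM for Tcp1 and 732 TPM for Cct4. Cct3 and Cct7 have deposited lengths of 6370 and 6778 bases, against principal transcripts of 1977 and 2441 bases. Cct6b, the testis paralogue of Cct6a, had 0, 5, 0 and 2 read pairs.

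**Figure D2:**
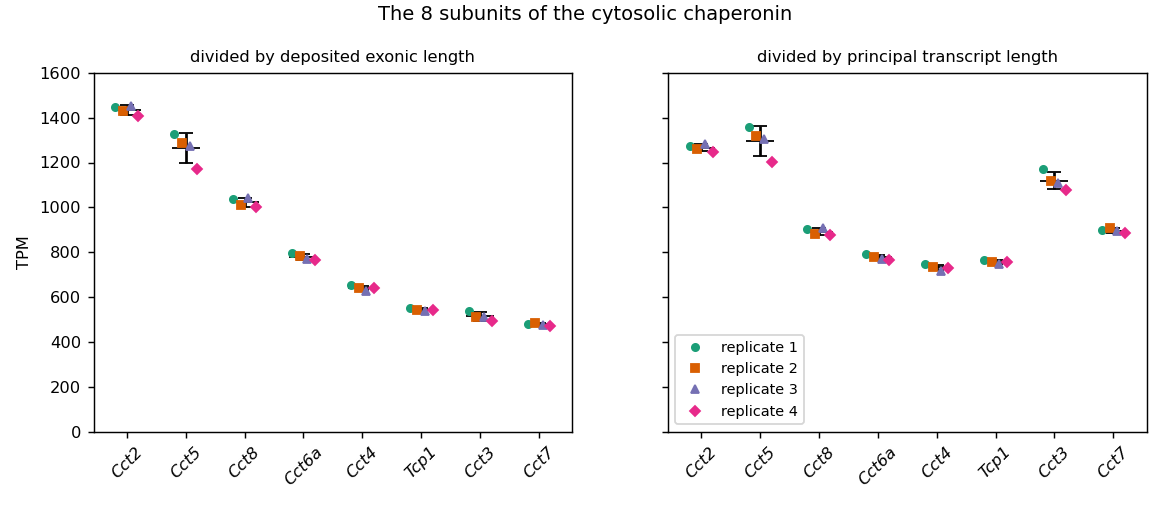
TPM of the 8 subunits of the cytosolic chaperonin TRiC, with read pairs divided by deposited exonic length on the left and by principal transcript length on the right; symbols are the 4 libraries, and bars give the mean and SD. Cct3 and Cct7 move up on the right, and the ratio of highest to lowest is 3.00 on the left and 1.78 on the right.

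Prefoldin hands unfolded actin and tubulin to TRiC, and its 4 listed subunits were less abundant than the 8 of TRiC under both lengths. Pfdn5 had 258, 257, 228 and 226 TPM, with replicates 1 and 2 above replicates 3 and 4. Pfdn2 averaged 174 ± 5.04 TPM, Pfdn1 averaged 149.7 ± 8.49 TPM and Pfdn4 averaged 49.0 ± 2.36 TPM. Of the exonic bases of Pfdn5, 11.8% also belong to exons of Myg1 on the same strand, so its read pairs there cannot be assigned to either gene.

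The mitochondrial chaperonin is a barrel of HSP60, the product of Hspd1, closed by a lid of HSP10, the product of Hspe1. Hspd1 (chr1:55077835-55088243, minus strand) had 1876, 1834, 1890.35 and 1861 TPM. Hspe1 (chr1:55088132-55091307, plus strand) had 700.1, 751, 710.3 and 699.6 TPM and lay below Hspd1 in every library. By principal transcript length the gap was smaller, at 921 TPM for Hspe1 and 1375 TPM for Hspd1.

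Hspb1, the small heat shock protein of the set, had 0, 0, 3 and 3 read pairs in replicates 1 to 4, and 3 read pairs would be 0.181 and 0.197 TPM in the 2 libraries without any. Hsf1, the main activator of the heat-inducible genes, had 181, 183, 196 and 199.7 TPM, lower in replicates 1 and 2 than in replicates 3 and 4. Hsf2, a related factor, had 7.43, 7.17, 7.24 and 7.57 TPM.

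Members were sorted from general knowledge into constitutive, heat-inducible, ER-stress-inducible and testis-known genes, with 12 left unclassified because they are both present at rest and induced, or are not known as either. The 8 heat-inducible members held 4.51 ± 0.0462% of the summed level, and the 23 constitutive members held 71.1 ± 0.263%. Hsp90aa1 was 72.8% of the heat-inducible sum. The median heat-inducible member stood at 7.84 TPM, against 457 TPM for the median constitutive member. These shares and medians depend on the sorting, which was done with earlier results of these data known. Setting aside induced members that are present at rest lowers the heat-inducible share, so the contrast partly follows from the sorting. Hsp90aa1, Hsph1 and Dnajb1 were kept as heat-inducible although they averaged 1053, 278 and 99.6 TPM here. The 5 ER-stress-inducible members held 5.91 ± 0.0829%, of which Hspa5 was 50.8%. The 12 unclassified members held 18.4 ± 0.318%, led by Hspd1. The 4 genes known from testis held 0.0645 ± 0.00200%, of which Hspa4l was 91.3%. By compartment the 5 mitochondrial members held 12.7 ± 0.1003% and the 6 ER members 5.96 ± 0.0825%, against 80.7 ± 0.0939% for the 39 cytosolic members. The median mitochondrial member, at 715 TPM, stood above the median ER member at 124 TPM and the median cytosolic member at 242 TPM. Heat shock factors made up the remaining 0.615 ± 0.0284%. By family, with deposited length, the largest shares were 36.6% for HSP90, 20.8% for TRiC and 15.8% for HSP70, followed by 9.61% for the HSP90 co-chaperones and 8.04% for the mitochondrial chaperonin.

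**Figure D3:**
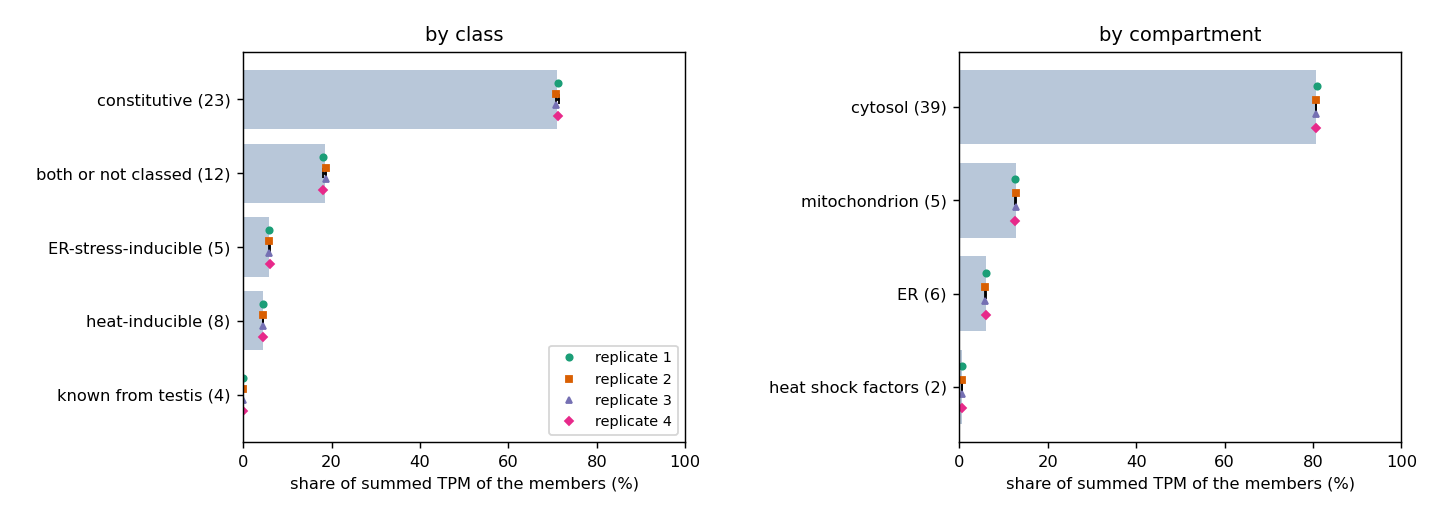
Share of the summed TPM of the 52 members held by each class (left) and each compartment (right), in percent, with the number of members in brackets; bars are means of 4 libraries, lines the SD and symbols the single libraries. Constitutive members hold 71.1% and cytosolic members 80.7%, and the libraries differ little.

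In 13 pairs of related genes an inducible, organelle or paralogous member was set first, against a related second gene, within each library. The value is the difference in log2(TPM + 1). The second gene was a constitutive member except for Hspd1, Dnaja1 and Bag1, which were left unclassified, and Hspe1 and Hspd1 are both mitochondrial. By deposited length the second gene was higher in all 4 libraries for 12 pairs. With 4 libraries an exact two-sided sign-flip permutation test cannot give a p below 0.125, and each of the 13 pairs had p = 0.125, also after Benjamini-Hochberg adjustment. Hsp90aa1 minus Hsp90ab1 was -3.19 ± 0.0563, with Hsp90ab1 at 9.16 ± 0.365 times the TPM of Hsp90aa1. Hsp90b1 minus Hsp90ab1 was -3.84 ± 0.0314 and Trap1 minus Hsp90ab1 was -4.71 ± 0.0262. The differences between Hspa8 and its organelle partners were smaller, -1.59 ± 0.0717 for Hspa5 minus Hspa8 and -1.48 ± 0.0743 for Hspa9 minus Hspa8. By principal transcript length these 2 differences were wider, at -2.24 ± 0.0717 and -1.96 ± 0.0743. For the low genes, Hspa1a minus Hspa8 was -11.25, Hspa1b minus Hspa8 was -10.71, Hspa2 minus Hspa8 was -10.07 and Cct6b minus Cct6a was -9.52. On the log2(TPM + 1) scale such values understate the gap of a gene near 0. Bag3 minus Bag1 was -4.50 ± 0.130.

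The other 3 pairs also changed with the gene length. Hsph1 minus Hspa4 was -0.72 ± 0.0493 by deposited length and -0.043 ± 0.0493 by principal transcript length. Hspe1 minus Hspd1 was -1.38 ± 0.0639 and -0.58 ± 0.0639 by these lengths. Dnajb1 minus Dnaja1 was the only pair with the first gene higher, at 1.05 ± 0.105 in 4 of 4 libraries. It turned to -0.19 ± 0.105 by principal transcript length, since the deposited length of Dnaja1 is 8629 bases and its principal transcript 3376 bases. Of the stretches of 50 bases in the principal transcript of Dnaja1, 30.6% also occur in other genes.

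**Figure D4:**
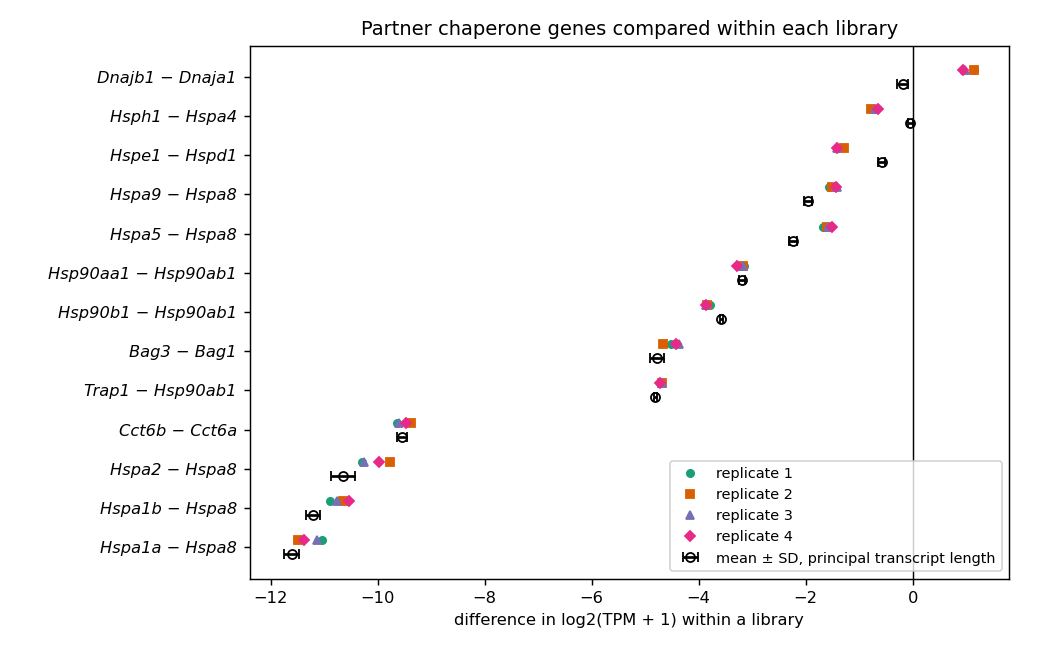
Difference in log2(TPM + 1) between the first and the second gene of 13 related pairs; coloured symbols are the 4 libraries with deposited exonic length, and open circles with bars the mean and SD with principal transcript length. Of the 13 pairs, 12 lie left of 0 in all 4 libraries, and Dnajb1 minus Dnaja1 lies on the other side of 0 when the length changes.

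By deposited length the 47 members at 1 TPM or more kept much of their order between libraries. Of the 46 neighbouring pairs in order of mean level 19 overlapped between libraries, and 35 stood in the same order in all 4 libraries. Hsp90ab1, Hspa8, Hspd1, Cct2 and Cct5 were each separated from the next member without overlap. The ranges of Hsp90aa1, Hspa9 and Cct8 overlapped, although these 3 stood in that order in every library. Stip1 and Hspa5 overlapped as well, with Stip1 the higher in 1 of 4 libraries. The order between genes changed with the length. By principal transcript length Cct5, at 1203 to 1357 TPM, overlapped Cct2, at 1246 to 1282 TPM, and also Hspd1, at 1352 to 1393 TPM. Hspa9, at 893 to 924 TPM, then lay above Hsp90aa1, at 832 to 879 TPM, in every library.

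Of the 47 members, 12 had a mean level that changed by over 1.5 times between the lengths. By principal transcript length 9 were higher, at 48.4 TPM for Dnajb6, 18.3 TPM for Hsf2, 8.35 TPM for Dnajb4, 1118 TPM for Cct3, 897 TPM for Cct7, 89.2 TPM for Pfdn4, 81.9 TPM for Dnaja1, 182 TPM for Dnajc2 and 187 TPM for Hspa14. The other 3 were lower, at 534 TPM for Ahsa1, 98.3 TPM for Pfdn1 and 124 TPM for Hsf1.

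No chaperone gene was called for its spread between the libraries. edgeR's quasi-likelihood fit without a contrast asked which genes varied more than genes of like abundance, with Benjamini-Hochberg adjustment over 12285 genes, and called 28 of them at 0.05 (0.228%) and 0 of the 48 members tested. With so few of all genes called, a count of 0 among 48 does not set the members apart. Among the members Hspa8 had the lowest adjusted p in edgeR, 0.887. Without adjustment 1 of the 48 members, Hspa8, was under 0.05 in edgeR, or 2.08%, against 666 of all genes, or 5.42%. DESeq2's dispersion outliers also held 0 members. The SD of log2 CPM over the 4 libraries had a median of 0.0463 for the members and 0.102 for all genes tested. These are medians of sets that differ in abundance, and more abundant genes spread less.

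The lowest SD among the members was 0.0114 for Dnajb11, and the highest were 0.365 for Hspa2, 0.212 for Hspa1b, 0.137 for Dnajb9 and 0.127 for Pfdn5. Of the 47 members at 1 TPM or more in every library, 12 had both replicates 1 and 2 above replicates 3 and 4 (25.5%), against 11.9% of the 11181 genes at that level. They were Hspa8, Dnajb1, Dnajb9, Bag1, Pfdn4, Pfdn5 and the TRiC subunits Tcp1, Cct3, Cct4, Cct5, Cct6a and Cct7. Another 10 members had both replicates 1 and 2 below replicates 3 and 4 (21.3%), against 25.7% of those genes. They were Hsp90ab1, Trap1, Hspa4, Hspa4l, Hsph1, Hspa13, Dnajb6, Dnajb11, Dnajc3 and Hsf1. The same libraries are parted by Xist, at 116 to 141 TPM in replicates 1 and 2 and 0.269 to 0.303 TPM in replicates 3 and 4. The part of sex in these values was not tested.

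**Figure D5:**
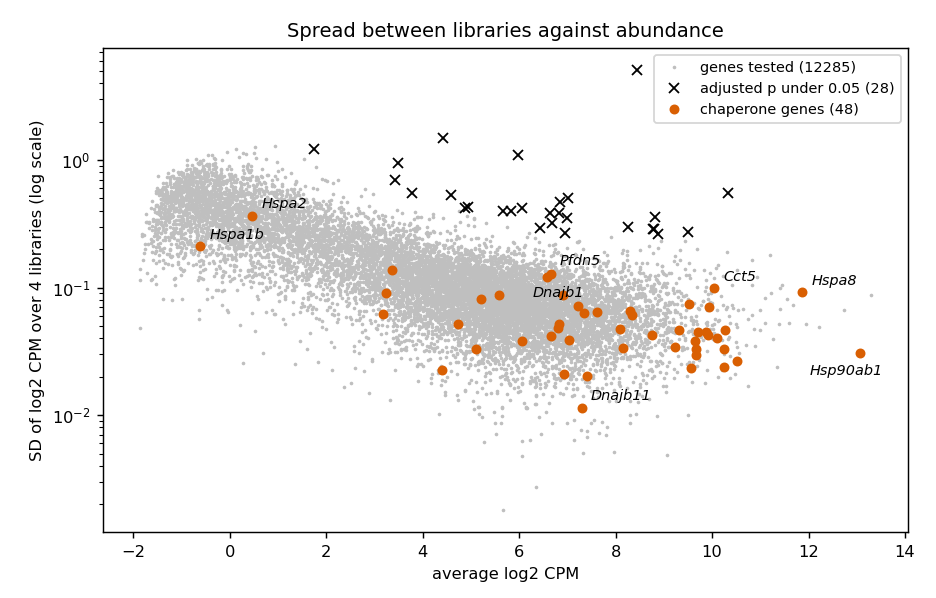
SD of log2 CPM over the 4 libraries (log scale) against average log2 CPM for 12285 genes; orange points are the 48 chaperone genes tested and crosses the 28 genes called at an adjusted p under 0.05. No chaperone gene is among the crosses, and most lie in the lower part of the cloud at their abundance.

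Other genes of protein folding were present alongside. A list of 46 further genes held HSP70 and HSP90 co-chaperones, and also HSP70-type, small heat shock and prefoldin-type genes. Of these 46 genes 42 reached 1 TPM in every library, led by Nudc at 705 ± 15.9 TPM, Hspbp1 at 356 ± 22.1 TPM and St13 at 355 ± 7.85 TPM. Those that did not were HSP70-type or small heat shock genes. All 24 genes of ER folding and the unfolded protein response reached 1 TPM in every library, led by the lectin chaperone Calr at 1500.4 ± 42.4 TPM, the stress transcription factor Atf4 at 742 ± 15.8 TPM and the disulfide isomerase P4hb at 722 ± 28.8 TPM. All 14 genes of mitochondrial protein quality control did as well, led by the prohibitin Phb2 at 606 ± 27.0 TPM and the proteases Lonp1 at 280.1 ± 3.89 TPM and Clpp at 224 ± 10.1 TPM. Of 10 other genes linked to heat shock factors, which include further heat shock factors and not only genes that respond to them, 7 did. They were led by the ubiquitin gene Ubb at 524 ± 30.8 TPM, Gadd45b at 183 ± 6.54 TPM and Hsbp1 at 81.2 ± 3.33 TPM, while the collagen chaperone Serpinh1 had 0 read pairs in all 4 libraries. edgeR called the spread of 0 of the 43, 24, 14 and 7 genes tested in these lists.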

How the data were processed

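Gene counts of 4 mouse libraries were used as the authors deposited them: per the file headers, whole-number counts of read pairs were made with featureCounts 1.4.6-p4 on exons of GENCODE M13, reverse-stranded (strand setting 2), only where both ends aligned, and with no option to count pairs that fit several places. STAR made the alignments, per the file headers, in a version not stated there, on mm10 per the labels. Lengths come from the same deposited table and join the exons of all transcripts of a gene, in bases.

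Symbols were matched through GENCODE M21 for 50376 of 50600 gene IDs, with 224 unmatched. TPM were computed here from counts over deposited length, and again over the M21 principal transcript. Replicates were numbered as in the labels. The members, classes and gene lists were chosen with earlier results of these data known, and all 52 members are named; of each other list the counts and the 3 genes of highest mean TPM are named, and Serpinh1 was added after its values were seen. For the spread between libraries an intercept-only quasi-likelihood model of all genes was fitted (R 4.3.3, edgeR 4.0.16, TMM scaling, filterByExpr, robust prior, Benjamini-Hochberg at 0.05), and its biological coefficient of variation was 0.0881. It was tested on simulated data for that comparison, with 12177 genes: 71 of 100 genes given an extra SD of 0.5 log2 units were found, 96 of 100 at 1 log2 unit, and 2 of 11977 others were called. The changed genes were drawn from those with at least 100 expected read pairs in the smallest library. Recovery was therefore not measured at the lower counts of Hspa1b and Hspa2. Pairs were compared with an exact sign-flip permutation test on log2(TPM + 1). The alternatives were DESeq2 1.42.0, other filters, pseudocounts and scalings, each replicate left out, and, chosen after seeing the data, the principal transcript length. The comparison of replicates 1 and 2 with 3 and 4 was also added after seeing the data. No sequence from mouse chromosome 18 is printed, which concerns Hspa9 and Pfdn1. Values after ± are the SD over the libraries, and the floors of 3 read pairs cover counting error only.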

Additional observations from a re-analysis of the deposited data

How the results depend on the processing

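The count of members called for spread was 0 under each alternative tried. Over all genes 28 were called, against 142 without a filter on low counts, 15 without robust fitting, 68 as DESeq2 dispersion outliers and 14 to 27 when 1 replicate was left out, the fewest without replicate 3; these are other tests or other numbers of genes and libraries, and the cause was not tested. The share of the summed level moved by more than its SD under 3 alternatives, as follows. Taken as read pairs not divided by length, it was 73.99% for constitutive, 12.5% for unclassified, 7.22% for ER-stress-inducible, 6.07% for heat-inducible and 0.211% for testis-known members, and by compartment 81.7% for the cytosol, 10.6% for mitochondria, 7.30% for the ER and 0.421% for heat shock factors. Without Hsp90ab1 these shares were, in the same order, 58.7%, 26.3%, 8.45%, 6.45% and 0.0922%, and 72.4%, 18.2%, 8.52% and 0.879%. By principal transcript length, an alternative chosen after seeing the data, they were 73.9%, 16.3%, 5.36%, 4.33% and 0.0572%, and 82.2%, 11.9%, 5.40% and 0.475%. With that length the ratio of the highest to the lowest TRiC subunit was 1.78, and Dnajb1 minus Dnaja1 was reversed at -0.19. Of 104 recomputed partner differences the other 103 kept their direction. Genes were paired within each library, but libraries could not be paired between conditions because they form 1 group.

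With floors of 0.5 and 5 TPM, 48 and 45 members were detected in place of 47, and 46 by principal transcript length. Hspa1a, Hspb1 and Cct6b rest on 0 to 23 read pairs per library, so their levels are known only as low. The 4 libraries allow no p below 0.125 for a pair of genes, and a member whose spread was not called is not thereby shown to be even. Of 312 recomputed member levels 87 moved by more than their SD between libraries, all by principal transcript length or with TPM scaled over nuclear protein-coding genes only, and none when a replicate was left out.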
